A study of Mus musculus with 6 samples.

Results

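The epidermal growth factor (EGF) receptor ligands and the proteases that release them were examined in RNA sequencing libraries of cells taken from subcutaneous CT26 tumours. The set held 9 of the 17191 genes in the deposited tables and was chosen by gene name: the ligands Areg, Ereg, Hbegf and Tgfa, the receptors Egfr and Erbb2, and the sheddases Adam17, Adam10 and Adam8. CT26 is a mouse colorectal carcinoma line, here grown under the skin of BALB/c females, 6 to 8 weeks of age, until tumours measured 100 to 200 mm3. The TP-18 group (3 libraries) came from mice dosed by mouth with TP-18, whose code name is all that the labels give of it, at 50 mg/kg each day for 3 weeks. The vehicle group (3 libraries) came from mice with the same tumours that were given the vehicle instead. All mice carried the tumour graft, and no other allele or agent is named in the labels.

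EGF family ligands are made as precursors anchored in the cell membrane, and membrane proteases of the ADAM family cut them free. ADAM17 is the main sheddase of amphiregulin, epiregulin, HB-EGF and TGF-alpha, while ADAM10 cuts betacellulin and EGF. Released ligands bind EGF receptors on epithelial and stromal cells, which signal through RAS and the ERK kinases, and tumour macrophages are a known source of such ligands.

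None of the 9 genes differed between TP-18 and vehicle libraries past an adjusted p of 0.05. Ereg, Hbegf and Adam8 were abundant in all 6 libraries, Egfr and Tgfa were scarce, and the lowest p belonged to Areg, at a log2 fold change of -0.90 ± 0.30 (SE). The windows around the start sites of Areg, of Adam17, its main sheddase, and of Adam8, the most abundant of the 9, are printed here to show what precedes these genes. RefSeq entries on GRCm38.p6 were matched by symbol for 7 of the 9 genes, and each window runs from 250 bases before the start site to 50 after it, 5′ to 3′ on the gene's own strand. They lie at chr5:91139349-91139648 (plus strand) for Areg, chr12:21373583-21373882 (minus strand) for Adam17 and chr7:139992513-139992812 (minus strand) for Adam8. Capitals mark matches, on either strand, to the cyclic AMP response element TGACGTCA, the TATA box (TATAAA or TTTATA), the GC box (GGGCGG or CCGCCC), the CCAAT box (CCAAT or ATTGG) and the AP-1 site (TGACTCA or TGAGTCA).
Areg: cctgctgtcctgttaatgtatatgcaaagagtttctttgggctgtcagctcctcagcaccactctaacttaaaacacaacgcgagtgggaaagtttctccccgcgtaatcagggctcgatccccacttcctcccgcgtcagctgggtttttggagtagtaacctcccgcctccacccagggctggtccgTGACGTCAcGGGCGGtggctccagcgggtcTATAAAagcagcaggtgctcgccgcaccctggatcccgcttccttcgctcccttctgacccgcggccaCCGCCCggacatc
Adam17: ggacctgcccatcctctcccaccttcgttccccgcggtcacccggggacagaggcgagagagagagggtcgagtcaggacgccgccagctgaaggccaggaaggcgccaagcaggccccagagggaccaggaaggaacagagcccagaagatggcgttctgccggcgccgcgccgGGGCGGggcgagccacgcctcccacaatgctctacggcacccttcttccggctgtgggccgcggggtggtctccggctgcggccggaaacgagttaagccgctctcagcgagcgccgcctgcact
Adam8: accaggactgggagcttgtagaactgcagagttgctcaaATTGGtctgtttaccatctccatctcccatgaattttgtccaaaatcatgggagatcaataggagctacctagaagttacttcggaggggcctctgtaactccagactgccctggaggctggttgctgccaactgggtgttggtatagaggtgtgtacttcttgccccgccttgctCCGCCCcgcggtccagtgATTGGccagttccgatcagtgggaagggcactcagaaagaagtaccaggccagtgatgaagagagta

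In the Areg window the cyclic AMP response element, the full palindrome bound by CREB, spans positions -61 to -54 and the TATA box positions -31 to -26, counted from the start site. Of 32851 windows of the same length in the table, 1.79% held that element and 13.6% the TATA box, and Areg was the only 1 of the 7 matched genes with either. GC boxes were found in 6 of the 7 windows, Erbb2 being the exception, against 35.7% of all windows. CCAAT boxes were found in Adam8, Adam10 and Erbb2, against 37.4% of all windows, and the AP-1 site in none of the 7, against 5.20%. A match describes letters in the sequence and does not show that a factor bound there. The Areg window was 59.3% G or C, the Adam17 window 70.0% and the Adam8 window 52.3%, beside a median of 52.7% over all windows.

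All 9 genes are annotated as protein-coding on GRCm38 in GENCODE M21. Areg (Entrez 11839) lies at 91139599 to 91148432 and Ereg (13874) at 91074622 to 91093646, side by side on the plus strand of chromosome 5. Hbegf (15200) lies on chromosome 18 at 36504927 to 36515805 and Tgfa (21802) on chromosome 6 at 86195223 to 86275719. Egfr (13649), at 16752203 to 16918158, and Erbb2 (13866), at 98412470 to 98437716, are both on chromosome 11. Adam17 (11491) lies on chromosome 12 at 21323509 to 21373632, Adam10 (11487) on chromosome 9 at 70678997 to 70780229 and Adam8 (11501) on chromosome 7 at 139978932 to 139992562. Adam17 shares 311 of its 7154 exonic bases with Iah1 on the other strand, and Ereg shares 141 of 4128 with Gm19610. Tgfa, Adam8 and Erbb2 share 118, 46 and 9 bases with Gm43917, Gm16201 and Mien1. Whether strand was used in counting is not given in the sources used here, so reads in these stretches cannot be told apart between the partners.

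Library totals ran from 17135001 to 17597645 counts in the TP-18 group and from 16371128 to 17004480 in the vehicle group. The labels disagree on the cells that were taken: CD11b+F4/80+CD206+ macrophages sorted by flow cytometry, CD11b+ cells taken on magnetic beads, or the CT26 line. All 12 macrophage markers had counts in every library, with summed values of 3630 to 5645 FPKM (counts scaled to gene length and library total) in TP-18 and 3181 to 8876 FPKM in vehicle libraries. Markers of CT26 carcinoma and epithelium were present too, 11 of 12 listed and 4 of these at 0 in some library (among them Krt7, Krt19 and Cldn4), with sums of 149.9 to 298 FPKM in TP-18 and 199.9 to 299 FPKM in vehicle libraries. Most of that was Krt20, a keratin of intestinal epithelium, at 226 ± 82.1 FPKM in TP-18 and 211 ± 45.9 FPKM in vehicle libraries (SD, n = 3 each). Sox9, a transcription factor on the same list, was the only 1 of its 6 tested genes that was called, at 12.1, 11.7 and 10.7 FPKM in TP-18 and 31.6, 37.8 and 32.4 FPKM in vehicle libraries (log2 fold change -1.74, edgeR adjusted p = 0.0137). In such bulk samples fewer cells of a type and less RNA per cell cannot be told apart. Nothing in the labels ties a library to its own mouse. The p-values therefore measure only how far these libraries spread, which may in part be technical.

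By level per length the 9 genes fell into a wide order. Adam8 had the highest mean over the 6 libraries, 153 FPKM, followed by Ereg at 101 and Hbegf at 89.8 FPKM. These stood at the 96.8, 95.0 and 94.4 percentiles of the 12721 genes tested. Adam17 (32.2 FPKM), Areg (28.6 FPKM) and Adam10 (26.7 FPKM) came next, then Erbb2 at 4.07 FPKM. Tgfa averaged 0.670 FPKM and Egfr 0.355 FPKM, at the 11.4 and 6.03 percentiles. With the deposited lengths Adam8 exceeded Ereg, Hbegf exceeded Adam17, Adam10 exceeded Erbb2 and Erbb2 exceeded Tgfa in all 6 libraries. The ranges of these pairs did not overlap, but the lowest Adam8 value, 112.6 FPKM, was close to the highest Ereg value, 111.5 FPKM. The other neighbours did not differ beyond their spread: Ereg was above Hbegf in 4 of 6 libraries, Adam17 above Areg in 3, Areg above Adam10 in 3 and Tgfa above Egfr in 5. These levels depend on the lengths used. The deposited FPKM use 2375 bases for Hbegf, and with all 4834 exonic bases of GENCODE M21 its mean would be 44.1 FPKM. With exonic bases Adam17 would stand at 20.2 FPKM, below Areg at 28.6 and Adam10 at 25.7 FPKM. Adam8 has 4638 exonic bases against 4190 in the deposited FPKM, and with the former its range would overlap that of Ereg.

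**Figure D1:**
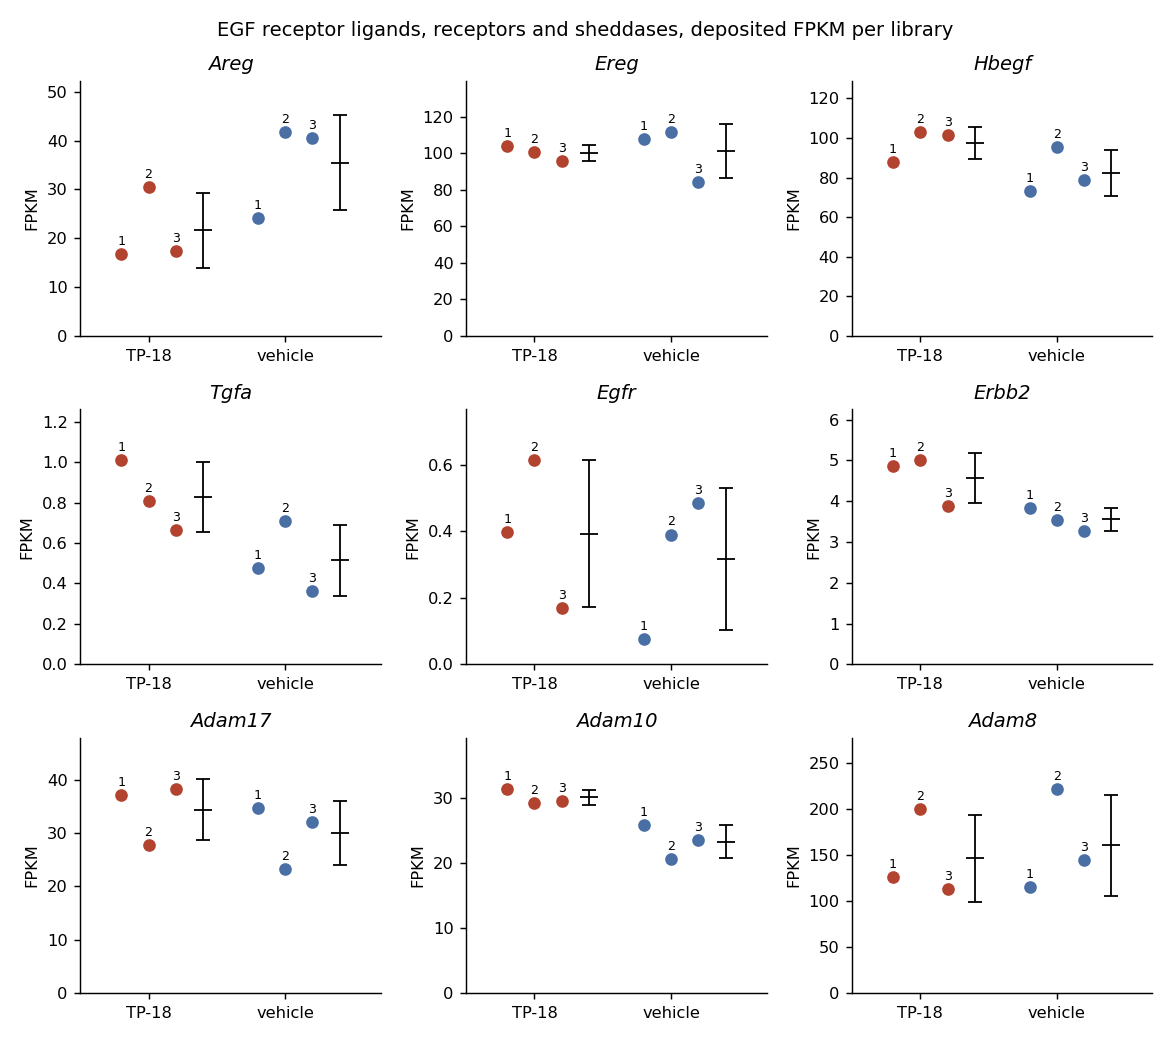
Deposited FPKM (y axes, each from 0) of the 9 genes in the 3 TP-18 libraries (red, left) and the 3 vehicle libraries (blue, right), with replicate numbers beside the points and the mean ± SD to the right of each group. Areg has 2 TP-18 libraries below every vehicle library and TP-18 2, at 30.6 FPKM, above vehicle 1. On this scale Adam10 and Erbb2, each higher in TP-18, are the genes of the 9 whose groups do not overlap. The share of all genes was not computed for FPKM. FPKM use library totals alone, and with that scaling the median log2 fold change of all tested genes was 0.20. With the composition factors of the test it was 0.02. In counts scaled with the composition factors of the test, only Adam10 does not overlap, beside 23.3% of all tested genes.

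Areg encodes amphiregulin, a ligand that binds the EGF receptor weakly. It had 16.8, 30.6 and 17.4 FPKM in TP-18 libraries 1 to 3, against 24.2, 41.8 and 40.5 FPKM in vehicle libraries 1 to 3. TP-18 1 and TP-18 3 were the lowest of all, but TP-18 2 lay above vehicle 1, so the groups overlapped. The means were 21.6 ± 7.75 FPKM in TP-18 and 35.5 ± 9.78 FPKM in vehicle libraries (SD, n = 3 each). With edgeR's quasi-likelihood test the fold was 0.536, with a 95% interval of 0.329 to 0.874, an unadjusted p = 0.0190 and an adjusted p = 0.238. Adjusted p-values for Areg ran from 0.129 to 0.580 with 1 library left out at a time, and DESeq2 gave 0.0741. Mast cells and basophils also make amphiregulin. All 8 of their markers were in the table, 4 of them (Mcpt4, Cma1, Ms4a2 and Mcpt8) at 0 in some library. Their summed level ran from 13.8 to 36.6 FPKM in TP-18 and from 8.69 to 13.6 FPKM in vehicle libraries. Cpa3, Mcpt4, Tpsb2 and Cma1 were higher in every TP-18 library than in any vehicle library. These were 4 of the 6 markers tested, beside 23.3% of all tested genes without overlap in either direction. Gata2, the most abundant of the list, overlapped, as did Kit. Gata2 had 7.49, 10.5 and 5.62 FPKM in TP-18 and 6.68, 12.3 and 7.34 FPKM in vehicle libraries. The part of these cells in the Areg values was not tested.

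Ereg encodes epiregulin, which binds the EGF receptor and ERBB4. It had 104, 100.8 and 95.6 FPKM in TP-18 libraries, against 108, 112 and 84.4 FPKM in vehicle libraries. The highest and the lowest FPKM were both in vehicle libraries, so the TP-18 FPKM lay within the vehicle range. In CPM, here counts scaled to library totals after TMM adjustment for composition, as in the test, TP-18 3 was the lowest library instead. The values were 408, 391 and 369.8 CPM in TP-18 and 463, 494 and 378 CPM in vehicle libraries. The fold was 0.876, with a 95% interval of 0.692 to 1.11 and an edgeR adjusted p = 0.547. Areg, its neighbour on chromosome 5, stood at 0.162, 0.303 and 0.182 of the Ereg FPKM in TP-18 libraries and at 0.225, 0.374 and 0.480 of it in vehicle libraries.

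Hbegf encodes heparin-binding EGF-like growth factor, which in its membrane form is also the diphtheria toxin receptor of human cells. It had 87.9, 103 and 101 FPKM in TP-18 libraries, against 72.9, 95.3 and 78.6 FPKM in vehicle libraries. Vehicle 2 lay above TP-18 1, and the other vehicle libraries lay below all TP-18 libraries. FPKM use library totals alone, whereas the test also applies TMM composition factors, which ran from 1.05 to 1.07 in TP-18 and from 0.924 to 0.962 in vehicle libraries. In CPM, which carry these factors, vehicle 2 was the highest of the 6 libraries, at 242 CPM. The Hbegf means were 218 ± 17.1 CPM in TP-18 and 208 ± 31.5 CPM in vehicle libraries, a fold of 1.05 (95% interval 0.815 to 1.34, edgeR adjusted p = 0.866).

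Tgfa encodes transforming growth factor alpha, the ligand typical of epithelial cells. It had 84, 66 and 54 counts in TP-18 libraries, against 38, 57 and 28 counts in vehicle libraries. In FPKM these were 1.01, 0.806 and 0.665 in TP-18 and 0.474, 0.708 and 0.361 in vehicle libraries. Vehicle 2 overlapped the TP-18 range and the other vehicle libraries lay below it. The fold was 1.42, but its 95% interval ran from 0.794 to 2.54 (edgeR adjusted p = 0.515).

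Together the ligands summed to 220 ± 13.3 FPKM in TP-18 and 219 ± 25.8 FPKM in vehicle libraries (SD, n = 3 each). Ereg made up 45.6 ± 3.53% of the sum in TP-18 and 46.2 ± 5.65% in vehicle libraries, and Hbegf 44.3 ± 2.67% in TP-18 and 37.4 ± 1.65% in vehicle libraries. Areg made up 8.03, 13.0 and 8.11% in TP-18 libraries and 11.8, 16.8 and 19.9% in vehicle libraries. With exonic bases as length Ereg would make up 59.0 ± 3.98% in TP-18 and 57.1 ± 6.38% in vehicle libraries, and Hbegf 28.1 ± 2.19% in TP-18 and 22.7 ± 1.23% in vehicle libraries. With the deposited lengths the Hbegf shares of the groups did not overlap, at 41.9 to 47.2% in TP-18 and 35.5 to 38.5% in vehicle libraries, while those of Areg did, again through TP-18 2 and vehicle 1. These shares are descriptions chosen after the values were seen and carry no test.

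**Figure D2:**
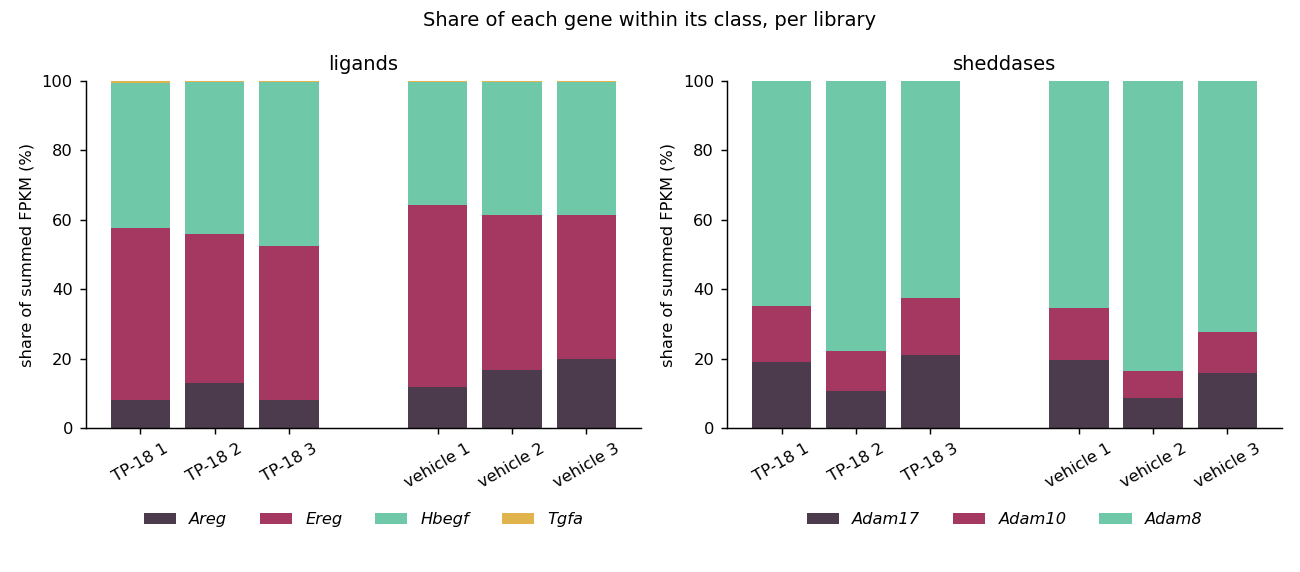
Share of each gene in the summed deposited FPKM of its class (y axis, percent) for the ligands (left) and the sheddases (right), 1 bar per library, TP-18 libraries left of vehicle libraries. Ereg and Hbegf fill most of each ligand bar, and Adam8 fills 62.4 to 77.8% of the sheddase bars in TP-18 and 65.5 to 83.4% in vehicle libraries.

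Egfr encodes the receptor that all of these ligands bind. It had 60, 91 and 25 counts in TP-18 libraries, against 11, 57 and 68 counts in vehicle libraries. In FPKM these were 0.397, 0.612 and 0.170 in TP-18 and 0.0757, 0.390 and 0.483 in vehicle libraries. The low libraries were TP-18 3 and vehicle 1, and the groups overlapped throughout. For the 11 counts of vehicle 1 the exact 95% Poisson interval was 5.49 to 19.7 counts, so the spread between vehicle libraries was wider than counting error, which is all such an interval covers. The fold was 1.09, with a 95% interval of 0.355 to 3.35 and an edgeR adjusted p = 0.945.

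TP-18 3 and vehicle 1 also had the lowest summed markers of skin, muscle and fat, with sums of 91.5, 110 and 24.2 FPKM in TP-18 libraries 1 to 3 and 27.6, 149 and 54.0 FPKM in vehicle libraries 1 to 3. Of that list 8 of 10 genes were in the table, and Krt5 and Plin1 were at 0 in some library. Fabp4, which encodes a lipid carrier, made up most of the sum in every library but vehicle 1. It had 70.6, 104 and 19.3 FPKM in TP-18 and 11.6, 122 and 31.5 FPKM in vehicle libraries. The fat cell genes Adipoq and Plin1 had at most 13 and 5 counts in any library. The muscle actin Acta1 had another order, at 9.59, 2.13 and 1.93 FPKM in TP-18 and 7.26, 13.6 and 11.6 FPKM in vehicle libraries. Endothelial markers, all 10 in the table and none at 0, summed to 68.8, 72.9 and 37.7 FPKM in TP-18 libraries and to 10.5, 69.7 and 22.6 FPKM in vehicle libraries. The part of these cells in the Egfr values was not tested.

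Erbb2 encodes the partner receptor that has no known ligand of its own. It had 4.87, 5.00 and 3.88 FPKM in TP-18 libraries, against 3.85, 3.54 and 3.28 FPKM in vehicle libraries. On this scale every TP-18 library lay above every vehicle library, the closest pair being TP-18 3 and vehicle 1. With TMM factors they overlapped, at 23.1, 23.4 and 18.1 CPM in TP-18 and 20.0, 18.9 and 17.7 CPM in vehicle libraries. The fold was 1.14 (95% interval 0.875 to 1.49, edgeR adjusted p = 0.594).

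**Figure D3:**
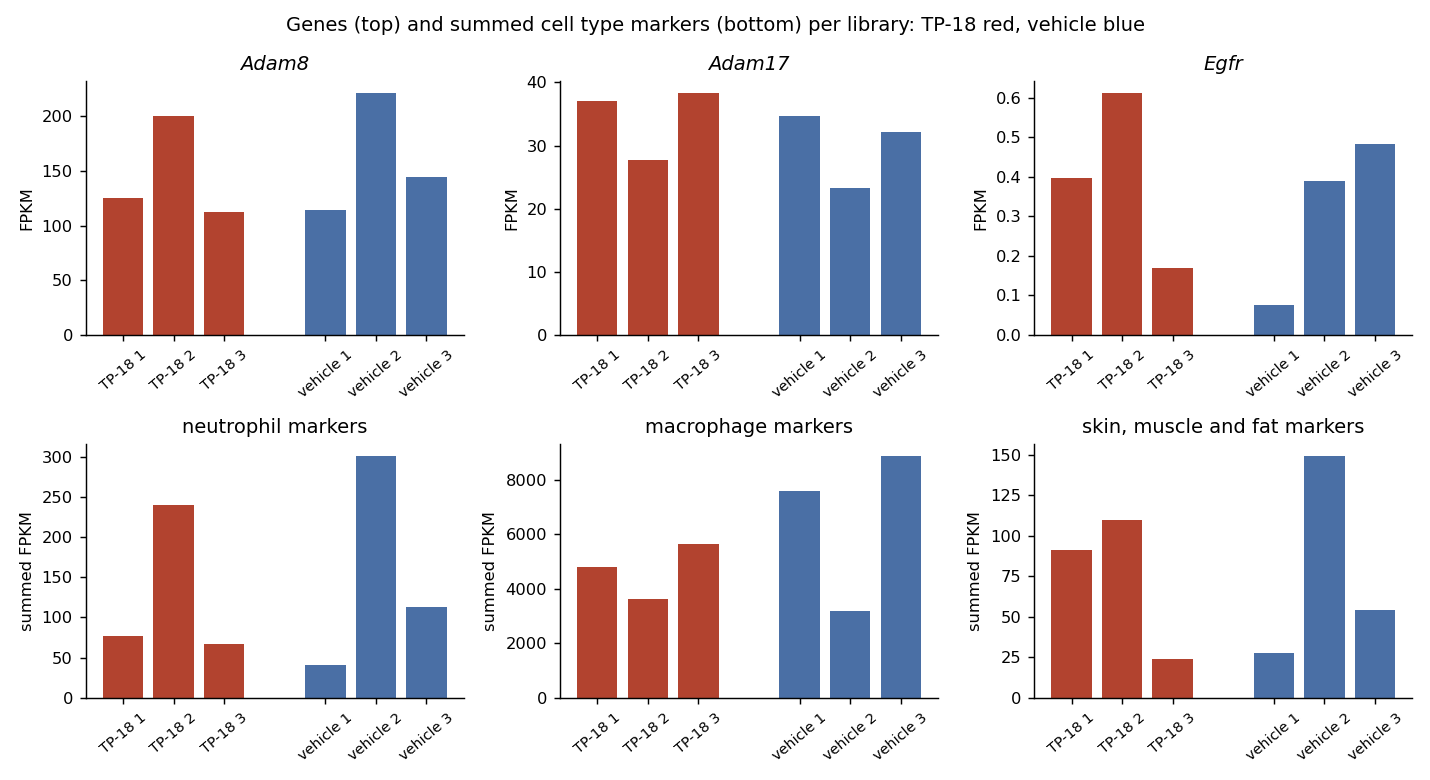
FPKM of Adam8, Adam17 and Egfr (top) and summed FPKM of neutrophil, macrophage, and skin, muscle and fat markers (bottom) in each library, TP-18 red and vehicle blue, with bars from 0. TP-18 2 and vehicle 2 have the highest Adam8, the highest neutrophil sums (240 FPKM in TP-18 2 and 302 FPKM in vehicle 2) and the lowest Adam17 and macrophage sums of their groups.

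Adam17 encodes the protease also known as TACE, which cuts the precursors of Areg, Ereg, Hbegf, Tgfa and TNF. It had 37.1, 27.8 and 38.3 FPKM in TP-18 libraries, against 34.7, 23.3 and 32.1 FPKM in vehicle libraries. Replicate 2 was the low library in both groups, and the ranges overlapped. The fold was 1.01, with a 95% interval of 0.740 to 1.39 and an edgeR adjusted p = 0.972. That interval leaves out a rise or a fall of 1.5-fold, but only for the fit with TMM factors and all 6 libraries. Its log2 fold change was 0.02 ± 0.20 (SE). With library totals as scaling it was 0.20 ± 0.20, and without TP-18 2 it was 0.15 ± 0.20.

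Adam10 encodes the sheddase of betacellulin, EGF and Notch receptors. It had 31.3, 29.3 and 29.5 FPKM in TP-18 libraries, against 25.7, 20.6 and 23.4 FPKM in vehicle libraries. All TP-18 libraries lay above all vehicle libraries on this scale and also with TMM factors, at 141, 130.1 and 130.9 CPM in TP-18 and 127, 104 and 120.3 CPM in vehicle libraries. It was the only 1 of the 9 whose groups did not overlap in CPM, as happened in 23.3% of all tested genes. The fold was 1.14, with a 95% interval of 0.926 to 1.41 and an edgeR adjusted p = 0.495, so the difference did not pass. Adam17 stood at 1.18, 0.949 and 1.30 times the Adam10 FPKM in TP-18 libraries and at 1.35, 1.13 and 1.37 times in vehicle libraries. With exonic bases as length these ratios would all be below 1, at 0.617 to 0.843 in TP-18 and 0.736 to 0.890 in vehicle libraries.

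Adam8 encodes a metalloprotease of myeloid cells, including neutrophils and macrophages. It had 125, 200.0 and 113 FPKM in TP-18 libraries, against 115, 221 and 145 FPKM in vehicle libraries. Replicate 2 was the high library in both groups, and the lowest and highest vehicle values enclosed most of the TP-18 range. The highest over the lowest library was 1.78 in TP-18 and 1.99 in vehicle (CPM), a wider spread than the fold between groups, 0.804 (95% interval 0.493 to 1.31, edgeR adjusted p = 0.630). Without vehicle 2 the log2 fold change was -0.02 and without TP-18 2 it was -0.61, against -0.32 with all libraries.

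The neutrophil markers summed to 77.3, 240 and 67.6 FPKM in TP-18 libraries 1 to 3 and to 40.3, 302 and 113 FPKM in vehicle libraries 1 to 3, so that replicate 2 was again the high library of each group. Of the neutrophil list 9 of 10 genes were in the table and 2, Cxcr2 and Camp, were at 0 in some library. Most of the sum in replicate 2 was S100a8, at 162 FPKM in TP-18 2 and 216 FPKM in vehicle 2. Csf3r, the G-CSF receptor, was instead lowest there, at 4.03 FPKM in TP-18 2 and 3.37 FPKM in vehicle 2. The same 2 libraries had the lowest macrophage sums of their groups, at 3630 FPKM in TP-18 2 and 3181 FPKM in vehicle 2, sums made up mostly of Apoe, C1qa, C1qb and C1qc. Other macrophage markers went otherwise: Mrc1, which encodes CD206, was highest of its group in TP-18 2 (180.0 FPKM), Fcgr1 was highest of its group in vehicle 2 (53.2 FPKM), and Cd68 was lowest in neither. The part of either cell type in the Adam8 and Adam17 values was not tested.

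By the edgeR test 0 of the 9 genes passed an adjusted p of 0.05, in a comparison where 14 of 12721 genes (0.11%) did. All 9 entered the test. At an unadjusted p under 0.05 there was 1, Areg, which is 1 of 9 beside 16.3% of all tested genes. DESeq2, which called 4.03% of the 12523 genes to which it gave an adjusted p, and limma-voom also called 0 of the 9.

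**Figure D4:**
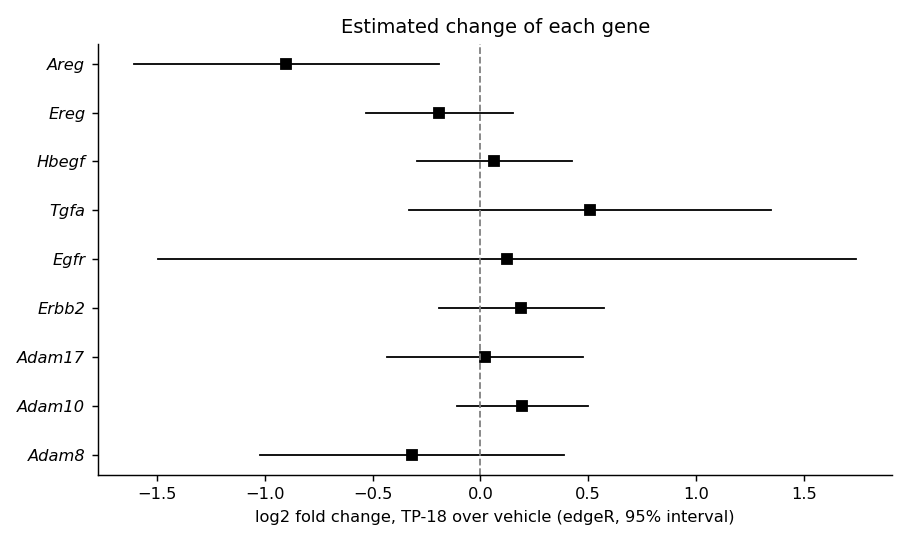
Log2 fold change of TP-18 over vehicle (x axis) for the 9 genes, with squares for the edgeR estimate and lines for the 95% interval without adjustment for multiple genes. The Areg interval, -1.61 to -0.19, is the only 1 that leaves out 0, and the Egfr interval, -1.49 to 1.74, is the widest.

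The remaining genes of the pathway were read from lists chosen for their roles. Of the other EGF family ligands and receptors, 6 of 9 were tested and 0 passed, 4 with positive and 2 with negative log2 fold changes. Btc, the ligand betacellulin, was the most abundant, at 8.03 ± 2.74 FPKM in TP-18 and 5.00 ± 2.06 FPKM in vehicle libraries (SD, n = 3 each). Nrg1, the neuregulin that binds ERBB3 and ERBB4, had 1.67, 1.83 and 1.34 FPKM in TP-18 libraries, against 2.34, 2.44 and 2.29 FPKM in vehicle libraries. All its TP-18 values were the lower ones, with a log2 fold change of -0.72 ± 0.15 (SE) and an edgeR adjusted p = 0.137. Erbb3, the receptor that pairs with ERBB2, had 1.31, 1.08 and 1.23 FPKM in TP-18 libraries, against 0.759, 0.206 and 0.479 FPKM in vehicle libraries. Its groups did not overlap either, with a log2 fold change of 1.15 ± 0.43 and an edgeR adjusted p = 0.258. In CPM these were 2 of the 6 tested genes, beside 23.3% of all tested genes without overlap in either direction. Epgn, Nrg3 and Erbb4 were too low for the test.

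Among partners and inhibitors of the sheddases, 17 of 18 were tested and 0 passed, 9 positive and 8 negative (12 and 5 with library totals as scaling). In CPM the groups did not overlap for 4 of the 17, beside 23.3% of all tested genes in either direction. Rhbdf2 encodes iRhom2, which myeloid cells need to mature ADAM17. It had 18.4 ± 2.58 FPKM in TP-18 and 28.7 ± 4.48 FPKM in vehicle libraries, without overlap, and a log2 fold change of -0.82 ± 0.17 (edgeR adjusted p = 0.136). Furin, the protease that removes the prodomain of ADAM17 and ADAM10, had 68.5 ± 10.1 FPKM in TP-18 and 105 ± 38.0 FPKM in vehicle libraries (edgeR adjusted p = 0.230). The most abundant were metalloproteinase inhibitors. Timp2 had 178 ± 12.8 FPKM in TP-18 and 173 ± 21.2 FPKM in vehicle libraries, and Timp1 had 134 ± 55.3 FPKM in TP-18 and 129 ± 48.8 FPKM in vehicle libraries (edgeR adjusted p = 0.665 and 0.897). At an unadjusted p under 0.05 there were 4 of 17, all lower in TP-18, beside 8.7% of all genes in that direction.

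Of the other ADAM proteases, 6 of 8 were tested and 0 passed, 4 positive and 2 negative (5 and 1 with library totals as scaling). Adam9, at 81.2 ± 12.3 FPKM in TP-18 and 79.1 ± 7.11 FPKM in vehicle libraries, and Adam15, at 72.3 ± 4.60 FPKM in TP-18 and 61.0 ± 12.4 FPKM in vehicle libraries, were the most abundant, above Adam17 and Adam10 with the deposited lengths. Adam12, which is made by stromal cells, had 2.33 ± 0.544 FPKM in TP-18 and 1.32 ± 0.366 FPKM in vehicle libraries (edgeR adjusted p = 0.296). Fibroblast and pericyte markers, all 12 in the table and none at 0, summed to 331 to 423 FPKM in TP-18 and 154 to 249 FPKM in vehicle libraries, and their part in the Adam12 values was not tested. Adam19 had 1.36 ± 0.408 FPKM in TP-18 and 2.20 ± 1.42 FPKM in vehicle libraries (edgeR adjusted p = 0.460).

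Membrane proteins that ADAM17 or ADAM10 cut were listed as well: 23 of 25 were tested, 6 positive and 17 negative with a median log2 fold change of -0.18, beside 0.02 over all tested genes, and 0 passed. With library totals as scaling the split was 11 positive and 12 negative. Tnf, the classic ADAM17 substrate, had 114 ± 41.1 FPKM in TP-18 and 237 ± 61.0 FPKM in vehicle libraries, with a log2 fold change of -1.24 ± 0.30 (edgeR adjusted p = 0.165). Tnfrsf1b, the TNF receptor also known as TNFR2, had 43.3 ± 5.43 FPKM in TP-18 and 79.1 ± 23.5 FPKM in vehicle libraries (edgeR adjusted p = 0.150). Sdc4, the heparan sulfate proteoglycan syndecan-4, had 209 ± 36.5 FPKM in TP-18 and 273 ± 12.9 FPKM in vehicle libraries (edgeR adjusted p = 0.210). Lag3, an inhibitory receptor of T cells that both sheddases cut, had 15.6 ± 5.78 FPKM in TP-18 and 4.81 ± 0.845 FPKM in vehicle libraries, a log2 fold change of 1.53 ± 0.28 (edgeR adjusted p = 0.111). In CPM the groups did not overlap for 7 of the 23, 6 lower and 1 higher in TP-18, beside 23.3% of all tested genes in either direction, and these 4 genes were among the 7. T and NK cell markers, 9 of 10 in the table and 4 (Cd3d, Cd3g, Cd8a and Ncr1) at 0 in some library, summed to 2.30 to 10.8 FPKM in TP-18 and 3.16 to 14.7 FPKM in vehicle libraries, and their part in the Lag3 values was not tested.

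**Figure D5:**
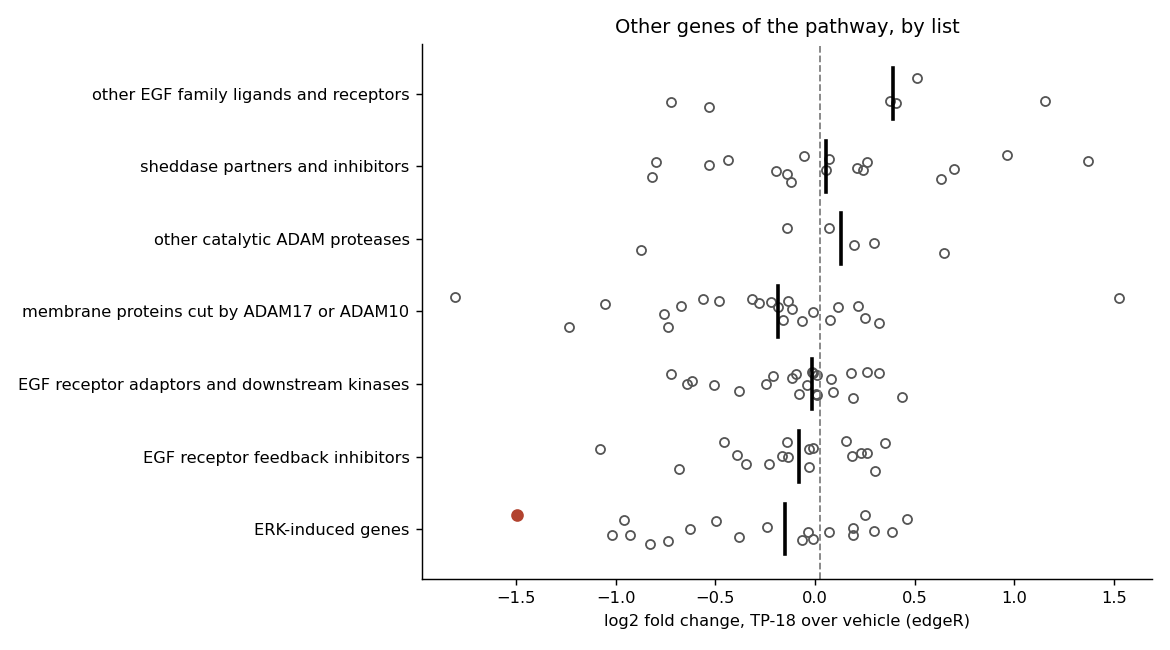
Log2 fold change of TP-18 over vehicle (x axis) for each tested gene (points) of 7 lists of pathway genes, with a black bar at each list's median and a dashed line at the median of all tested genes, 0.02. The filled red point is Dusp5, the only gene of these lists past an adjusted p of 0.05.

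Downstream of the receptor, adaptors and kinases were all tested (23 of 23), 10 positive and 13 negative with a median of -0.02 (16 and 7 with library totals as scaling), and 0 passed. Nck1, an adaptor that links receptors to the cytoskeleton, had 6.58 ± 0.527 FPKM in TP-18 and 8.27 ± 0.791 FPKM in vehicle libraries (edgeR adjusted p = 0.219). The most abundant were Mapk3, an ERK kinase, at 118 ± 10.8 FPKM in TP-18 and 110 ± 18.8 FPKM in vehicle libraries, and Grb2, the adaptor that recruits SOS, at 46.6 ± 3.52 FPKM in TP-18 and 42.4 ± 5.96 FPKM in vehicle libraries (edgeR adjusted p = 0.832 and 0.915).

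Of the feedback inhibitors of the EGF receptor, 18 of 20 were tested, 6 positive and 12 negative with a median of -0.08 (12 and 6 with library totals as scaling), and 0 passed. In CPM the groups did not overlap for 5 of the 18, 3 lower and 2 higher in TP-18, beside 23.3% of all tested genes in either direction. Errfi1 encodes MIG6, which binds and blocks the EGF receptor kinase, and was the most abundant. It had 219 ± 76.8 FPKM in TP-18 and 409 ± 40.2 FPKM in vehicle libraries, without overlap, with a log2 fold change of -1.08 ± 0.26 (edgeR adjusted p = 0.158). Spry2, a sprouty inhibitor of RAS signalling, had 13.0 ± 1.11 FPKM in TP-18 and 18.3 ± 0.742 FPKM in vehicle libraries (log2 fold change -0.68 ± 0.12, edgeR adjusted p = 0.111). Ptpn2, a tyrosine phosphatase, had 23.9 ± 1.55 FPKM in TP-18 and 29.0 ± 2.95 FPKM in vehicle libraries (edgeR adjusted p = 0.207).

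Among 20 genes that ERK signalling induces, all tested, 1 fell and 0 rose, with 7 positive and 13 negative and a median of -0.15 (10 and 10 with library totals as scaling). The 1 was Dusp5, a phosphatase of ERK in the nucleus, at 58.6 ± 2.28 FPKM in TP-18 and 146 ± 29.5 FPKM in vehicle libraries (edgeR adjusted p = 0.0493). It was no longer called without any 1 of vehicle 2, vehicle 3 and the TP-18 libraries, but was still called without vehicle 1. Over all 6 fits with 1 library left out its edgeR adjusted p ran from 0.0315, without vehicle 1, to 0.260. At an unadjusted p under 0.05 there were 9 lower and 2 higher of 20, beside 8.7% lower and 7.56% higher of all tested genes. In CPM the groups did not overlap for 10 of the 20, 7 lower and 3 higher in TP-18. Over all tested genes this share was 23.3% in either direction. With library totals as scaling the median of all tested genes was 0.20, against 0.02 with TMM factors. The list medians moved with it, to 0.02 for the ERK-induced genes, 0.10 for the feedback inhibitors, 0.16 for the adaptors, 0.11 for the 4 ligands and -0.0053 for the cut membrane proteins. Each of these 5 medians, and that of the 3 sheddases, was below that of all tested genes under both scalings. The other lists were above it under both. With TMM factors the medians were 0.39 for the other EGF family genes and 0.053 for the sheddase partners. They were 0.13 for the other ADAM proteases and 0.16 for the 2 receptors. With library totals these became 0.57, 0.23, 0.31 and 0.34.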

How the data were processed

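Counts per gene and, in a second table, FPKM values were deposited by the authors for 17191 genes in 3 TP-18 and 3 vehicle libraries. The authors ran fastp, HISAT2 and HTSeq on GRCm38, per the submitters' processing notes, which list no versions. The authors' FPKM equal count over library total over 1 length per gene, checked on all 17191 genes. Counts were tested with edgeR 4.0.16 (quasi-likelihood, filterByExpr with a minimum count of 10 and total of 15, TMM factors, no covariates) in R 4.3.3, with Benjamini-Hochberg adjustment over 12721 genes. Standard errors are the absolute log2 fold change over the square root of F, and 95% intervals use the test's degrees of freedom. Alternatives used DESeq2 1.42.0, limma 3.58.1 (voom, and log2 of FPKM plus 1 or 0.1), other scalings and filters, a replicate block and each library left out. The test was tried on simulated data.

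The 9 genes and the lists were chosen with earlier results of these data known. From each pathway list the text names up to 4 genes past the threshold, or otherwise the 2 with the smallest p and the 2 most abundant. Marker lists are given as sums, with zeros named. Some genes that these rules select are not reported here. Total counts per library ran from 16371128 to 17597645. Figures were drawn with matplotlib 3.10.9. Protein sequences were not used here.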

Additional observations from a re-analysis of the deposited data

How the results depend on the processing

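For the 9 genes 0 were called under each of the 9 other settings and in each of the 6 fits without 1 library. Their directions held under the 9 settings. With 1 library left out Hbegf (-0.054 to 0.17), Egfr (-0.37 to 0.55) and Adam17 (-0.14 to 0.15) changed sign on the log2 scale. The count over all genes, 14 by edgeR with TMM, was 4 with library totals as scaling, 505 with DESeq2, 2 with limma on log2(FPKM + 1), 2 with limma on log2(FPKM + 0.1), 27 without a low count filter and 0 to 8 with 1 library left out (8 without vehicle 1, 1 without vehicle 2 and 0 without any other). With the replicate number as a block it was 3, and 0 of the 9 genes passed. Same-numbered libraries deviated together at r = 0.16, 0.39 and -0.15. TP-18 1 and TP-18 2 correlated best with the vehicle library of their own number, and TP-18 3 with vehicle 1 (r = 0.50). The labels do not say what the numbers mark, and whether same-numbered libraries share a source was not tested. Under library totals, log2(FPKM + 1) and log2(FPKM + 0.1) the log2 fold changes of Timp2 (0.040, 0.044 and 0.044), Timp1 (0.053, 0.052 and 0.052), Adam9 (0.037, 0.029 and 0.030), Mapk3 (0.10, 0.10 and 0.11) and Grb2 (0.14, 0.14 and 0.14) turned positive. These settings leave out the TMM factors. With 1 library left out Timp1 (-0.46 to 0.14), Adam15 (-0.10 to 0.15), Mapk3 (-0.19 to 0.049) and Grb2 (-0.15 to 0.025) changed sign; the cause was not tested. DESeq2 also called named pathway genes that edgeR did not: Nrg1, Rhbdf2, Lag3, Tnfrsf1b, Tnf, Spry2 and Errfi1. Dusp5 was not called with library totals, with either fit on FPKM or with the block. Summed receptor FPKM in TP-18 over vehicle was 1.28, 1.20 to 1.40 with 1 library left out and 1.13 with TMM-scaled CPM. An added choice, made after seeing the data, used all exonic bases of GENCODE M21 as length. Mean FPKM then became 44.1 for Hbegf, 20.2 for Adam17 and 0.489 for Tgfa. Egfr (11 to 91) and Tgfa (28 to 84) had the fewest counts of the 9 genes, and so the widest counting intervals for their level.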
